A study of Homo sapiens with 10 samples.

Results

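The genes that encode the protein subunits of the mitochondrial ribosome were followed through 6 chromatin immunoprecipitation (ChIP-seq) peak lists of the established human prostate cancer cell line 22RV1. A gene was taken when it was protein-coding and its symbol was MRPL or MRPS followed by digits, with a trailing letter allowed and no hyphen. This gave 77 of 20037 protein-coding genes, 49 named for the large subunit (MRPL) and 28 for the small subunit (MRPS). A gene was counted as having a gene end summit when the highest point of a listed peak lay within 1 kb of either end of the gene on hg38.

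The 6 libraries form 3 pairs. Each group is 1 library, so there are no replicates. In the first pair RB1, the gene of the retinoblastoma protein RB, was knocked down by siRNA and set against a control siRNA. In the second pair a plasmid carrying residues 245-255 of RB, HA-RB(245-255), was set against its empty vector, EV(245-255), and in the third HA-RBN, an insert that the labels name only RBN, was set against its empty vector, EV(RBN). All groups share the cell line, culture in RPMI-1640 medium with serum, and transfection, and no label names the antibody. The knockdown and the expression of the plasmids cannot be checked from peak lists. The series title speaks of TRIM24, a transcription co-regulator that reads histone marks. The genotype label of the HA-RB(245-255) library reads as that of a control, which goes against its title, and the title was followed. Its residues are 245-255 in the titles and 244-255 in the series text. IgG libraries accompany the siRNA and the 245-255 pairs and were not analysed here.

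Mitochondrial ribosomes translate the few proteins that mitochondrial DNA encodes, all of them subunits of the oxidative phosphorylation machinery. Every protein of these ribosomes is encoded in the nucleus, made in the cytosol and imported. Their promoters commonly lie in CpG islands and lack a TATA box, and factors of the ETS family such as GABPA, NRF1 and YY1 are known regulators of nuclear genes for mitochondrial proteins. The small subunit reads the messenger RNA, and the large subunit forms the peptide bond and holds the exit tunnel. MRPS18A and MRPS30 carry small subunit names, but their proteins sit in the large subunit of the mammalian mitoribosome. They are grouped by name here unless stated otherwise.

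The summits of these genes lay at their starts, so promoters are shown for the 7 genes with a window that had the highest enrichment among those with a summit in all 6 libraries, and for MRPL46, which faces another of these genes. Each window runs from 250 bases before the gene start to 50 after it, is written 5′ to 3′ on the strand of the gene, and comes from RefSeq on GRCh38.p14. Capitals mark matches to CCGGAAG (the ETS core), AANATGGCG (YY1) or the NRF1 palindrome with 1 open base, on either strand, and a match is a run of letters, not a shown binding site.
MRPL54 (chr19:3762432-3762731, plus strand): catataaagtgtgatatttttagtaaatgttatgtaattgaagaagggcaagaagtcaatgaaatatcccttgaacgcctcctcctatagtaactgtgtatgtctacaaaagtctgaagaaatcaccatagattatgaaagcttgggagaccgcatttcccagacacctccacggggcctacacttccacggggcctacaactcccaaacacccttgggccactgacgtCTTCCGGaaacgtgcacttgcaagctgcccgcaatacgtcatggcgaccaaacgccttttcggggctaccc
MRPS18B (chr6:30617590-30617889, plus strand): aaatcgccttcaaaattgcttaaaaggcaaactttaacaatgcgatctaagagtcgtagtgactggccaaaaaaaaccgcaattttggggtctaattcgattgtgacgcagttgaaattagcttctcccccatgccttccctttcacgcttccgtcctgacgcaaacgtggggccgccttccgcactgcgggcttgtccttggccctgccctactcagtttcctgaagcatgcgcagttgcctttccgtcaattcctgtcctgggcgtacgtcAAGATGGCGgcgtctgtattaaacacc
MRPL57 (chr13:21176408-21176707, plus strand): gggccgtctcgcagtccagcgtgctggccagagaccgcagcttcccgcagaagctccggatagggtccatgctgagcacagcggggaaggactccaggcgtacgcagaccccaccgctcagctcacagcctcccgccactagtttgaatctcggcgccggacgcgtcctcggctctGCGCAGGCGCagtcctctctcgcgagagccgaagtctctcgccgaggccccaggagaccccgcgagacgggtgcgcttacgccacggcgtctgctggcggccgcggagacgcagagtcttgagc
MRPL1 (chr4:77862580-77862879, plus strand): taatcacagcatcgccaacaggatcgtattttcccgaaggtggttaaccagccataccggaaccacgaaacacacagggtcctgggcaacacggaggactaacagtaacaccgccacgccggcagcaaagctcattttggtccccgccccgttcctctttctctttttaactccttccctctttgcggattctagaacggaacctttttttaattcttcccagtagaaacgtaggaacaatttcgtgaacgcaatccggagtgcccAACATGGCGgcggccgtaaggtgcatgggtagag
MRPS9 (chr2:105037819-105038118, plus strand): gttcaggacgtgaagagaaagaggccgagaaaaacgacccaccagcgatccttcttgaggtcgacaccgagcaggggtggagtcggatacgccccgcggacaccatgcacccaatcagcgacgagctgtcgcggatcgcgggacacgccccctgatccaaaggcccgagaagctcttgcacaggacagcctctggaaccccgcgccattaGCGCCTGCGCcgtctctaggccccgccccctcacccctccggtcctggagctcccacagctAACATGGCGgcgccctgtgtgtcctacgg
MRPL16 (chr11:59810729-59811028, minus strand): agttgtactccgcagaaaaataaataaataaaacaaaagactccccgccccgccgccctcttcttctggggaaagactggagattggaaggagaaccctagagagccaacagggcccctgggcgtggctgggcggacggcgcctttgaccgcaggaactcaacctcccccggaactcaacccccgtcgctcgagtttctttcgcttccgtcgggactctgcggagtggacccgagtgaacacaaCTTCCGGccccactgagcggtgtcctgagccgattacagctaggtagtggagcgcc
MRPS26 (chr20:3045802-3046101, plus strand): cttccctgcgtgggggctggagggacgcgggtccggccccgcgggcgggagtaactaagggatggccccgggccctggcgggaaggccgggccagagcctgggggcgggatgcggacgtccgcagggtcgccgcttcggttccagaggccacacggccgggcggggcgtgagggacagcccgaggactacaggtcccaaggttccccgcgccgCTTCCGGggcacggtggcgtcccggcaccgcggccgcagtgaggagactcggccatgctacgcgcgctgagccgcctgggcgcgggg
MRPL46 (chr15:88467339-88467638, minus strand): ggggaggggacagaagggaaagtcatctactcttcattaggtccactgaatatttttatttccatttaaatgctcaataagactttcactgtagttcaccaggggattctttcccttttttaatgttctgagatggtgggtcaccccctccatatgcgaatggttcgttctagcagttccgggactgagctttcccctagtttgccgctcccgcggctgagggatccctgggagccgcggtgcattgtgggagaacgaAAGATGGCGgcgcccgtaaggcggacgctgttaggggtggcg
Each of the 8 windows holds at least 1 match, and no motif is common to all of them. The ETS core stands in MRPL54, MRPL16 and MRPS26, in each case in the reverse orientation CTTCCGG, at −21, −6 and −37 from the gene start. The YY1 letters stand just after the start in MRPS18B, MRPL1, MRPS9 and MRPL46, at 24, 17, 22 and 9. The NRF1 letters stand in MRPL57 and MRPS9, at −74 and −40. Positions are those of the first base of a match, with the gene start as 1 and no position 0. Summit positions further on count the gene start as 0.

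The lists differ in kind, which bears on each count below. The authors' lists hold 35285 peaks for RB1 siRNA and 21666 for control siRNA, 95816 for HA-RB(245-255) and 77488 for EV(245-255), and 252425 for HA-RBN and 161012 for EV(RBN). In the siRNA and 245-255 pairs the intervals tile 92.9% to 95.7% of the chromosomes, with 1 summit in each wide interval, whereas in the RBN pair they are short, with medians of 522 bp for HA-RBN and 450 bp for EV(RBN). All 77 genes therefore lay within 1 kb of an interval in the 4 wide lists, and a gene without a summit in them is not shown to be unbound. Read totals are not given in the labels or the lists. The library background, an index of depth, was 0.539 fragments per base for RB1 siRNA and 0.413 for control siRNA, 0.25 for HA-RB(245-255) and 0.187 for EV(245-255), and 0.634 for HA-RBN and 0.367 for EV(RBN). Of 10 prostate lineage genes, 4 to 8 had a gene end summit, and of 14 marker genes of other cell types 0 to 6 had one, depending on the library. The share of all genes ran from 28.1% to 73.4%. The prostate lineage share stood above it except with HA-RBN (70% against 73.4%), and that of the other markers below it in every library. These lists are short, and a peak is not a measure of expression.

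Most mitochondrial ribosomal protein genes had a gene end summit in the RBN pair, and fewer did in the other libraries. With HA-RBN 71 of 77 genes (92.2%) had one and with EV(RBN) 68 (88.3%), against 73.4% and 60.2% of all protein-coding genes in the same lists. In the 245-255 pair the counts were 43 genes (55.8%) for HA-RB(245-255) and 42 (54.5%) for EV(245-255), beside 45.5% and 45.4% of all genes. RB1 siRNA gave 35 genes (45.5%) and control siRNA 22 (28.6%), beside backgrounds of 33.5% and 28.1%. Each share stood above its background, by least in control siRNA. The exact Clopper-Pearson 95% intervals of these shares, which like all intervals here cover counting error only, were 83.8% to 97.1% for HA-RBN, 79.0% to 94.5% for EV(RBN), 44.1% to 67.2% for HA-RB(245-255), 42.8% to 65.9% for EV(245-255), 34.1% to 57.2% for RB1 siRNA and 18.8% to 40.0035% for control siRNA. The background lay below the interval in HA-RBN, EV(RBN) and RB1 siRNA, and inside it in control siRNA and the 245-255 pair. These intervals treat the genes as independent draws, though some genes share a summit, so they describe the shares and test nothing. The RB1 siRNA list is longer than the control siRNA list, and with every list cut to the 20860 strongest peaks of the shortest, 29.9% of the genes had a summit with RB1 siRNA and 28.6% with control siRNA, against 29.0% and 28.1% of all genes.

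The promoters of these genes were richer in CpG than the background. Of the 69 genes with a promoter window, 67 (97.1%) were rich in CpG, with an observed over expected ratio above 0.6, against 65.7% of all 15843 windows. Their median G+C content was 60.3%, against 62.7% over all windows. Among CpG-rich genes alone, 47.8% of the 67 with RB1 siRNA and 31.3% with control siRNA had a summit, against 45.7% and 38.9% of 10416 CpG-rich genes. The same shares were 58.2% for HA-RB(245-255) and 53.7% for EV(245-255), against 59.1% and 59.2% of CpG-rich genes. Set against CpG-rich genes, the mitochondrial ribosomal protein genes thus stood slightly higher with RB1 siRNA and lower in the other 3 wide lists. With HA-RBN the shares were 94.0% of these genes and 85.7% of CpG-rich genes, and with EV(RBN) 89.6% and 72.0%, so these genes stood higher in both. This comparison was chosen after the data were seen, and the part that CpG content has in the shares was not tested.

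**Figure D1:**
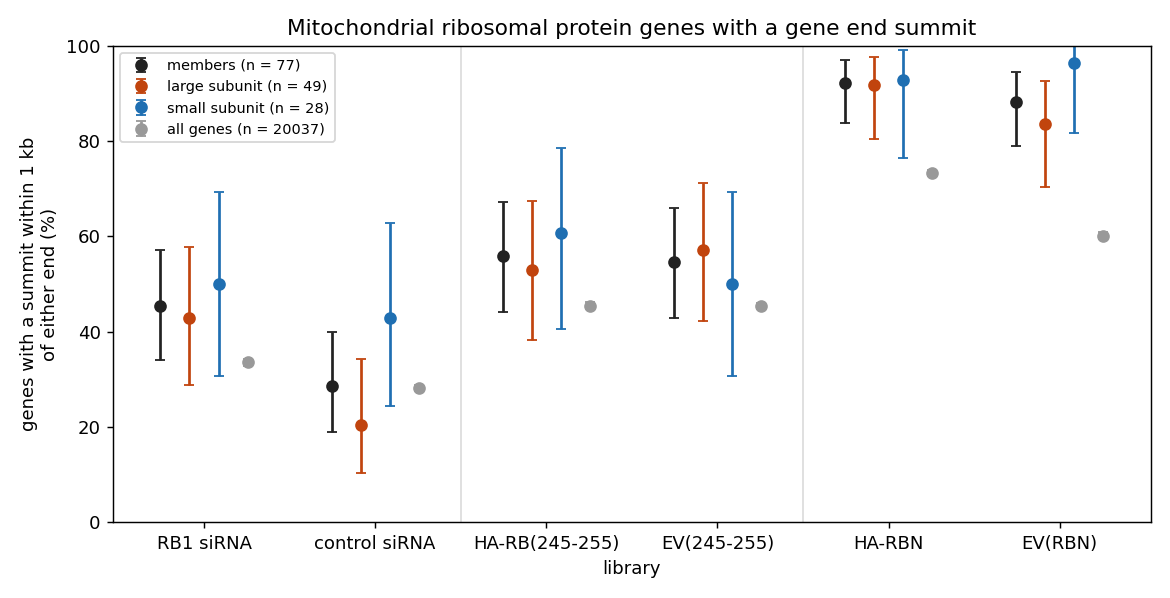
Percent of genes with a summit within 1 kb of either gene end (vertical axis) in each of the 6 libraries, for the 77 mitochondrial ribosomal protein genes, the 49 large and 28 small subunit genes, and all 20037 protein-coding genes; bars are exact 95% intervals for counting error. Both RBN libraries stand highest, at 92.2% and 88.3%, with the gene background below, and the intervals of the subunits overlap in every library.

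The difference between the large and the small subunit was within counting error in 5 of 6 libraries. Of 49 large subunit genes, 21 had a summit with RB1 siRNA and 10 with control siRNA, 26 with HA-RB(245-255) and 28 with EV(245-255), and 45 with HA-RBN and 41 with EV(RBN). Of 28 small subunit genes, 14 had one with RB1 siRNA and 12 with control siRNA, 17 with HA-RB(245-255) and 14 with EV(245-255), and 26 with HA-RBN and 27 with EV(RBN). Only in control siRNA did the 95% interval of the difference exclude 0: the large subunit share was 20.4% and the small 42.9%, a difference of −22.4 percentage points (−42.6 to −1.42). In the other libraries the difference lay between −12.8 and 7.14 points, and every interval held 0. With MRPS18A and MRPS30 counted as large subunit genes, the control siRNA difference was −20.7 points. These intervals too treat genes as independent draws and are no test. Across 6 such differences, no adjustment for their number was made.

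Within the lists the median summit height at these genes was near that of all genes with a summit, but higher with HA-RBN. The number of DNA fragments stacked at a summit was worked out from the authors' fold enrichment and p-value. The median over the genes with a summit was 25 fragments with RB1 siRNA and 22.5 with control siRNA, against 28 and 25 over all genes with a summit. It was 13 with HA-RB(245-255) and 12 with EV(245-255), against 11 and 12, and 13 with HA-RBN and 6 with EV(RBN), against 10 and 5. At least 20 fragments stood at 22 genes with RB1 siRNA (28.6%, against 21.5% of all genes) and 14 with control siRNA (18.2%, against 17.0%), at 10 genes each with HA-RB(245-255) and EV(245-255) (13.0%, against 12.8% and 13.2%), and at 25 with HA-RBN (32.5%, against 18.4%) and 2 with EV(RBN) (2.60%, against 2.83%). At this height the share was near the background with control siRNA, in the 245-255 pair and with EV(RBN). It stood above the background with RB1 siRNA and, by more, with HA-RBN. Large and small subunit medians lay within 5 fragments of each other in every library, the widest gap being 12 large against 16.5 small with HA-RBN. At the stricter level of a −log10 q of at least 2, 59 genes remained with HA-RBN (76.6%, against 45.1% of all genes) and 29 with EV(RBN) (37.7%, against 20.9%). None remained in the 4 wide lists, where 1.17% to 2.51% of all genes passed.

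A summit in all 6 libraries was seen at 11 of the 77 genes (14.3%, against 13.1% of all genes), 5 of the large and 6 of the small subunit. At least 4 libraries held a summit at 40 genes (51.9%, against 39% of all genes), and at least 5 at 27 genes (35.1%, against 26.1%). Enrichment is the number of fragments divided by the library background, and its geometric mean over the 6 libraries had a median of 41.5 over these 11 genes and of 60.0 over the 2627 genes with 6 summits. MRPL54 and MRPS18B stood above the median of those 2627 genes and the other 9 genes below it. MRPL3, MRPS2 and MRPS30 complete the 11 beside the 8 described next.

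MRPL54, a subunit particular to the mitochondrial ribosome, was the strongest of these 11, with a geometric mean enrichment of 106. It had 81 fragments with RB1 siRNA and 64 with control siRNA, 24 with HA-RB(245-255) and 19 with EV(245-255), and 57 with HA-RBN and 26 with EV(RBN). Its enrichment over the library background lay between 70.8 and 155 in the 6 libraries, and all 6 summits lay 84 to 289 bp after the gene start. The authors' fold enrichment over the local background was far lower, at 1.81 to 2.40 in the siRNA and 245-255 pairs. The −log10 q of these summits was 0 to 0.319, so they are not shown to be significant. With HA-RBN the authors' fold was 9.85 and with EV(RBN) 9.15, at a −log10 q of 36.4 and 16.8. MRPS18B, 1 of 3 related genes named MRPS18, followed with an enrichment of 70.4. Here RB1 siRNA had 44 fragments and control siRNA 54, HA-RB(245-255) 19 and EV(245-255) 28, and HA-RBN 39 and EV(RBN) 6. RB1 siRNA and HA-RB(245-255) were the lower libraries of their pairs, and HA-RBN was the higher of its own. MRPL57, another subunit without a bacterial counterpart, had 46 fragments with RB1 siRNA and 34 with control siRNA, 24 with HA-RB(245-255) and 5 with EV(245-255), and 27 with HA-RBN and 9 with EV(RBN). Its summits in the 245-255 pair lay 625 bp apart, so these 2 values do not describe the same peak.

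MRPS28, a small subunit protein, had 28 fragments with RB1 siRNA and 45 with control siRNA, 10 with HA-RB(245-255) and 8 with EV(245-255), and 36 with HA-RBN and 12 with EV(RBN). MRPL1, which belongs to the mobile stalk near the tRNA exit site, had 26 with RB1 siRNA and 20 with control siRNA, 16 in each library of the 245-255 pair, and 31 with HA-RBN and 10 with EV(RBN). Both genes thus stood highest by fragments in the siRNA pair or with HA-RBN, the libraries with the highest backgrounds. MRPS9, a conserved protein of the head of the small subunit, had 27 fragments with RB1 siRNA and 25 with control siRNA, 10 with HA-RB(245-255) and 12 with EV(245-255), and 19 with HA-RBN and 8 with EV(RBN). MRPL16, a conserved large subunit protein, had 23 with RB1 siRNA and 19 with control siRNA, 14 with HA-RB(245-255) and 16 with EV(245-255), and 21 with HA-RBN and 5 with EV(RBN). MRPS26, a small subunit protein, had 31 with RB1 siRNA and 22 with control siRNA, 8 with HA-RB(245-255) and 6 with EV(245-255), and 19 with HA-RBN and 7 with EV(RBN). The geometric mean enrichment was 41.5 for MRPS9, 40.2 for MRPL16 and 34.9 for MRPS26, below the median of all genes with 6 summits.

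**Figure D2:**
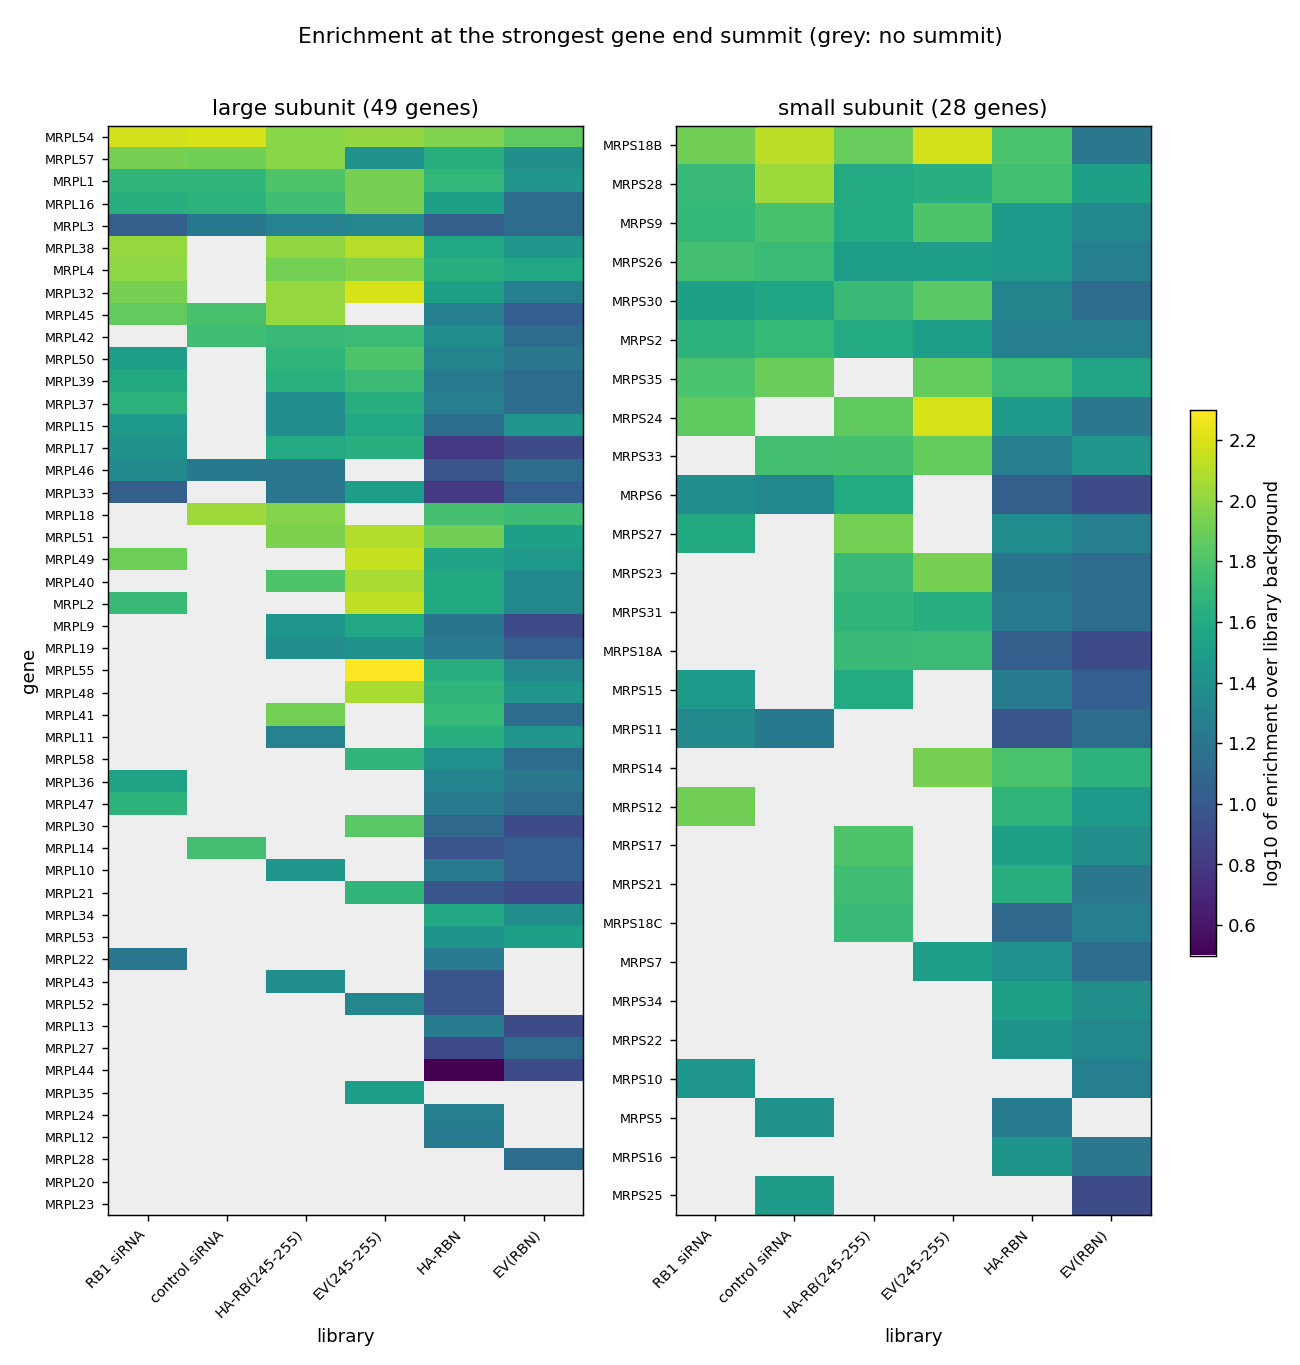
Enrichment over the library background, as log10, at the strongest gene end summit of each of the 77 genes (rows) in each library (columns), for the large subunit on the left and the small subunit on the right; grey marks a gene with no summit within 1 kb. MRPL54 and MRPS18B lead their panels, MRPL20 and MRPL23 are grey throughout, and the HA-RBN and EV(RBN) columns are filled for nearly all genes.

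At the other end, MRPL20 and MRPL23 had a gene end summit in no library, against 14.1% of all genes. Both encode conserved large subunit proteins, MRPL23 at the exit tunnel. MRPL20 (chr1:1401909-1407293) had an interval within 1 kb of a gene end in 5 libraries. The summits of those intervals were at least 20064 bp away in the 4 wide lists and 1492 bp away with HA-RBN, where 9 fragments were stacked. MRPL23 (chr11:1947332-2014944) had such an interval in the 4 wide lists alone, with summits 7408 to 27634 bp away. The genes missed in single libraries were mostly covered too: 42 with RB1 siRNA, 55 with control siRNA, 34 with HA-RB(245-255) and 35 with EV(245-255) had an interval and no summit. With HA-RBN 3 genes had an interval only and 3 had none, and with EV(RBN) 1 had an interval only and 8 had none. Over all genes, 99.0% to 99.5% had an interval within 1 kb of a gene end in the 4 wide lists. The same share was 79.4% with HA-RBN and 65.1% with EV(RBN).

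Few counted summits lay close to the 1 kb limit. The farthest summits still counted lay 626 bp from MRPS2 with RB1 siRNA, 486 bp from MRPL46 with control siRNA, 565 bp from MRPL11 with HA-RB(245-255), 845 bp from MRPS26 with EV(245-255), 860 bp from MRPL24 with HA-RBN and 972 bp from MRPS6 with EV(RBN). The nearest not counted lay 1392 bp from MRPL24 with RB1 siRNA, 1602 bp from MRPS16 with control siRNA, 1164 bp from MRPL21 with HA-RB(245-255), 1167 bp from MRPL34 with EV(245-255), 1220 bp from MRPL23 with HA-RBN and 1448 bp from MRPL43 with EV(RBN).

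The summits sat at gene starts rather than at the other end. Of the summits at genes with a known start, 96.9% with RB1 siRNA and 100% with control siRNA lay within 1 kb of the start, against 90.5% and 90.0% over all genes. The shares were 95% with HA-RB(245-255) and 100% with EV(245-255), against 85.8% and 85.2%, and 95.4% with HA-RBN and 95.2% with EV(RBN), against 80.7% and 77.4%. Within 200 bp of the start lay 81.3% of these summits with RB1 siRNA, 81.0% with control siRNA, 75% with HA-RB(245-255), 78.4% with EV(245-255), 53.8% with HA-RBN and 46.8% with EV(RBN). Over all genes the shares within 200 bp were 56.7% with RB1 siRNA, 53.9% with control siRNA, 53.2% with HA-RB(245-255), 54.4% with EV(245-255), 34.2% with HA-RBN and 31.3% with EV(RBN). In every library, then, summits at these genes were closer to the start than over all genes, and in the RBN pair they were more scattered than in the other libraries. The median position lay before the start in every library, at −48 bp with RB1 siRNA, −61 bp with control siRNA, −72.5 bp with HA-RB(245-255), −64 bp with EV(245-255), −13.5 bp with HA-RBN and −59 bp with EV(RBN). For 37 genes with a summit at the start in at least 4 libraries, the distance between the outermost summits had a median of 332 bp and ran from 98 bp (MRPL45) to 1705 bp (MRPS26).

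**Figure D3:**
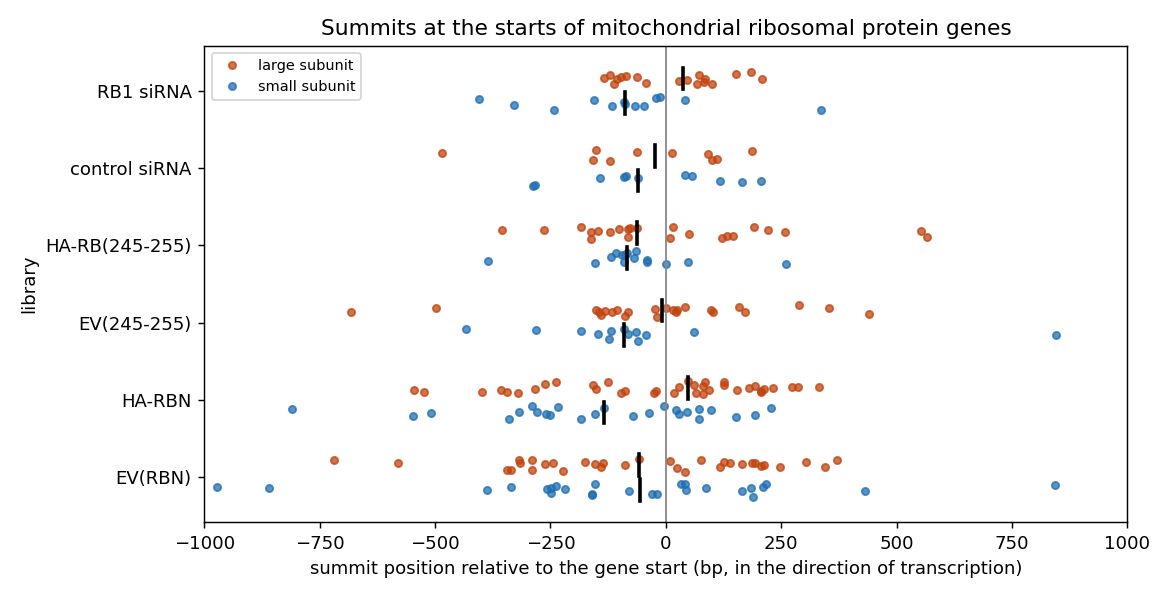
Position of each summit relative to the gene start, in bp along the direction of transcription, for large and small subunit genes in each library; black ticks mark the median of each group. Summits gather within 200 bp of the start in the siRNA and 245-255 pairs and spread wider with HA-RBN and EV(RBN).

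Mitochondrial ribosomal protein genes often stand next to another gene, so a summit cannot always be given to one of them. Another protein-coding gene ended or began within 1 kb of 42 of the 77 (54.5%), against 28.5% of all genes. A gene start on the opposite strand lay within 1 kb of 22 of the 69 with a known start (31.9%, 95% interval 21.2% to 44.2%), against 12.5% of 15843 genes, 18.8% of cytosolic ribosomal protein genes and 32.8% of genes for oxidative phosphorylation subunits. In 18 of the 22 cases the genes run apart from a shared stretch, and in 4 they overlap. Among summits counted for these genes, 17 of 35 with RB1 siRNA, 10 of 22 with control siRNA, 16 of 43 with HA-RB(245-255), 14 of 42 with EV(245-255), 32 of 71 with HA-RBN and 32 of 68 with EV(RBN) also lay within 1 kb of an end of another gene. The same share was not worked out over all genes, so it is not shown to be particular to these genes.

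MRPL46 and MRPS11 face each other on chromosome 15 with starts 320 bp apart, so that a large and a small subunit gene share their promoter region. They shared 1 summit in 4 libraries, with 12 fragments with RB1 siRNA and 7 with control siRNA, and 6 with HA-RBN and 5 with EV(RBN). With HA-RBN 7 fragments also fitted the listed values. These values lay below the median of the mitochondrial ribosomal protein genes in each of those libraries. MRPS12, a protein of the decoding centre, starts 181 bp from SARS2, which encodes the mitochondrial seryl-tRNA synthetase, and their shared summit held 44 fragments with RB1 siRNA, and 30 with HA-RBN and 11 with EV(RBN). MRPL49 starts 49 bp from FAU, which encodes a cytosolic ribosomal protein, and MRPS27 starts 133 bp from PTCD2, which encodes a mitochondrial RNA-binding protein. Other partners have other roles: MRPL32 starts 202 bp from the proteasome gene PSMA2, MRPL18 210 bp from the chaperonin gene TCP1, MRPL57 106 bp from the kinetochore gene SKA3, and MRPL27 45 bp from the endonuclease gene EME1. MRPS18B starts 597 bp from PPP1R10, and the summit counted for it lay near both genes in all 6 libraries. MRPL54 starts 990 bp from APBA3, yet none of its 6 summits lay within 1 kb of that gene. Over all genes, those with such a partner had summits more often than those without one in every library, and the mitochondrial ribosomal protein genes are given beside them. With HA-RBN 22 of 22 mitochondrial ribosomal protein genes with a partner and 43 of 47 without one had a summit, and with EV(RBN) 22 of 22 and 40 of 47, against 91.0% of all genes with a partner and 72.0% without for HA-RBN, and 82.5% and 58.4% for EV(RBN). With RB1 siRNA 12 of 22 (54.5%) and 20 of 47 (42.6%) had one, and with control siRNA 8 of 22 (36.4%) and 13 of 47 (27.7%), against 52.4% and 32.4% of all genes for RB1 siRNA and 46.0% and 27.0% for control siRNA. With HA-RB(245-255) the counts were 14 of 22 (63.6%) and 26 of 47 (55.3%), and with EV(245-255) 13 of 22 (59.1%) and 24 of 47 (51.1%), against 65.0% and 44.6% of all genes for HA-RB(245-255) and 66.2% and 44.5% for EV(245-255).

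Comparing the libraries of a pair, the ratio of fragments was taken at gene ends where both strongest summits lay within 500 bp and held at least 20 fragments together. It is given as a log2 ratio relative to the median of all such gene ends, so it shows change relative to other genes and no overall shift. With 1 library per group these are differences between libraries and carry no test.

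For RB1 siRNA against control siRNA, 13 genes could be compared and their median relative log2 ratio was 0.01. None lay more than 1 log2 unit from the median, against 2.21% of 3537 gene ends (1.53% above and 0.679% below). The highest were MRPL45, which lines the exit tunnel and holds the ribosome at the inner membrane, with 40 fragments against 25 and a relative log2 ratio of 0.42 (95% interval −0.34 to 1.20), then MRPS6 at 0.27, MRPS26 at 0.23 and MRPL57 at 0.17. The lowest was MRPS28, with 28 fragments against 45 and a ratio of −0.95 (−1.68 to −0.24), the only interval of the 13 that excluded 0. MRPS18B followed at −0.56 (−1.17 to 0.04), then MRPS35 at −0.22 and MRPS9 at −0.15. The 5 large subunit genes all lay above the median of all genes, at 0.01 to 0.42, and of the 8 small subunit genes 2 lay above it, 5 below and 1 at 0. A summit stood in the RB1 siRNA list alone at 19 genes (24.7%, against 13.6% of all genes) and in the control siRNA list alone at 6 (7.79%, against 8.17%). All of them had an interval of the other list within 1 kb of a gene end, so none of them marks a gene without any listed peak.

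For HA-RB(245-255) against EV(245-255), 19 genes were compared with a median of 0.06, and none lay past 1 log2 unit, against 3.84% of 3957 gene ends (1.74% above and 2.1% below). The highest ratio was that of MRPS31, at 12 fragments against 8 and 0.65 (−0.77 to 2.14), followed by MRPL42 and MRPS18A at 0.44 each and MRPL54 at 0.40. The lowest was that of MRPS24, a protein of the messenger RNA entry side, at 18 fragments against 29 and −0.63 (−1.56 to 0.27), followed by MRPS18B at −0.50, MRPL40 at −0.40 and MRPS23 at −0.24. Every one of the 19 intervals held 0. A summit was seen in the HA-RB(245-255) list alone at 13 genes (16.9%, against 14.2% of all genes) and in the EV(245-255) list alone at 12 (15.6%, against 14.1%). All of these genes had an interval of the other list within 1 kb of a gene end.

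For HA-RBN against EV(RBN), 33 genes were compared and the median was 0. MRPS18B lay more than 1 log2 unit above the median, against 4.35% of 4685 gene ends, and MRPS33 more than 1 below, against 3.03%, which makes 2 of 33 genes against 7.39% of gene ends in either direction. MRPS18B had 39 fragments against 6, a relative log2 ratio of 1.23 (−0.02 to 2.76). It was followed by MRPS21 with 27 against 6 and 0.70, MRPL51 with 52 against 12 and 0.64, and MRPL16 at 0.60. MRPS33 had 12 fragments against 10 and a ratio of −1.21 (−2.55 to 0.16), and MRPL53 at −0.97, MRPL18 at −0.59 and MRPL4 at −0.53 came next. Every one of the 33 intervals held 0, and EV(RBN) had 26 fragments or fewer at each gene. A summit stood in HA-RBN alone at 6 genes (7.79%, against 20.4% of all genes) and in EV(RBN) alone at 3 (3.90%, against 7.2%). MRPL22, MRPL24, MRPL43, MRPL52 and MRPS5 had no EV(RBN) interval within 1 kb of either end. MRPS10 had no HA-RBN interval there.

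MRPS18B therefore stood low in the first 2 comparisons and high in the third, and none of its 3 intervals excluded 0. Its summits lay at −117 and −90 bp from the gene start in the siRNA pair and −386 and −434 bp in the 245-255 pair. In the RBN pair they lay at −72 and 33 bp. The 3 comparisons are thus not shown to describe the same peak. The order of the genes by fragments was shared between the libraries of a pair, with Spearman's rho of 0.95 over 16 genes in the siRNA pair, 0.79 over 30 in the 245-255 pair and 0.78 over 65 in the RBN pair. Here every gene with a summit in both libraries was taken, without the 500 bp limit, so some pairs of values come from different peaks. No rho over all protein-coding genes is given, so the shared order is not shown to be particular to these genes. These genes share their promoters' base composition and the depth of 1 library, and rho is given as a description.

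**Figure D4:**
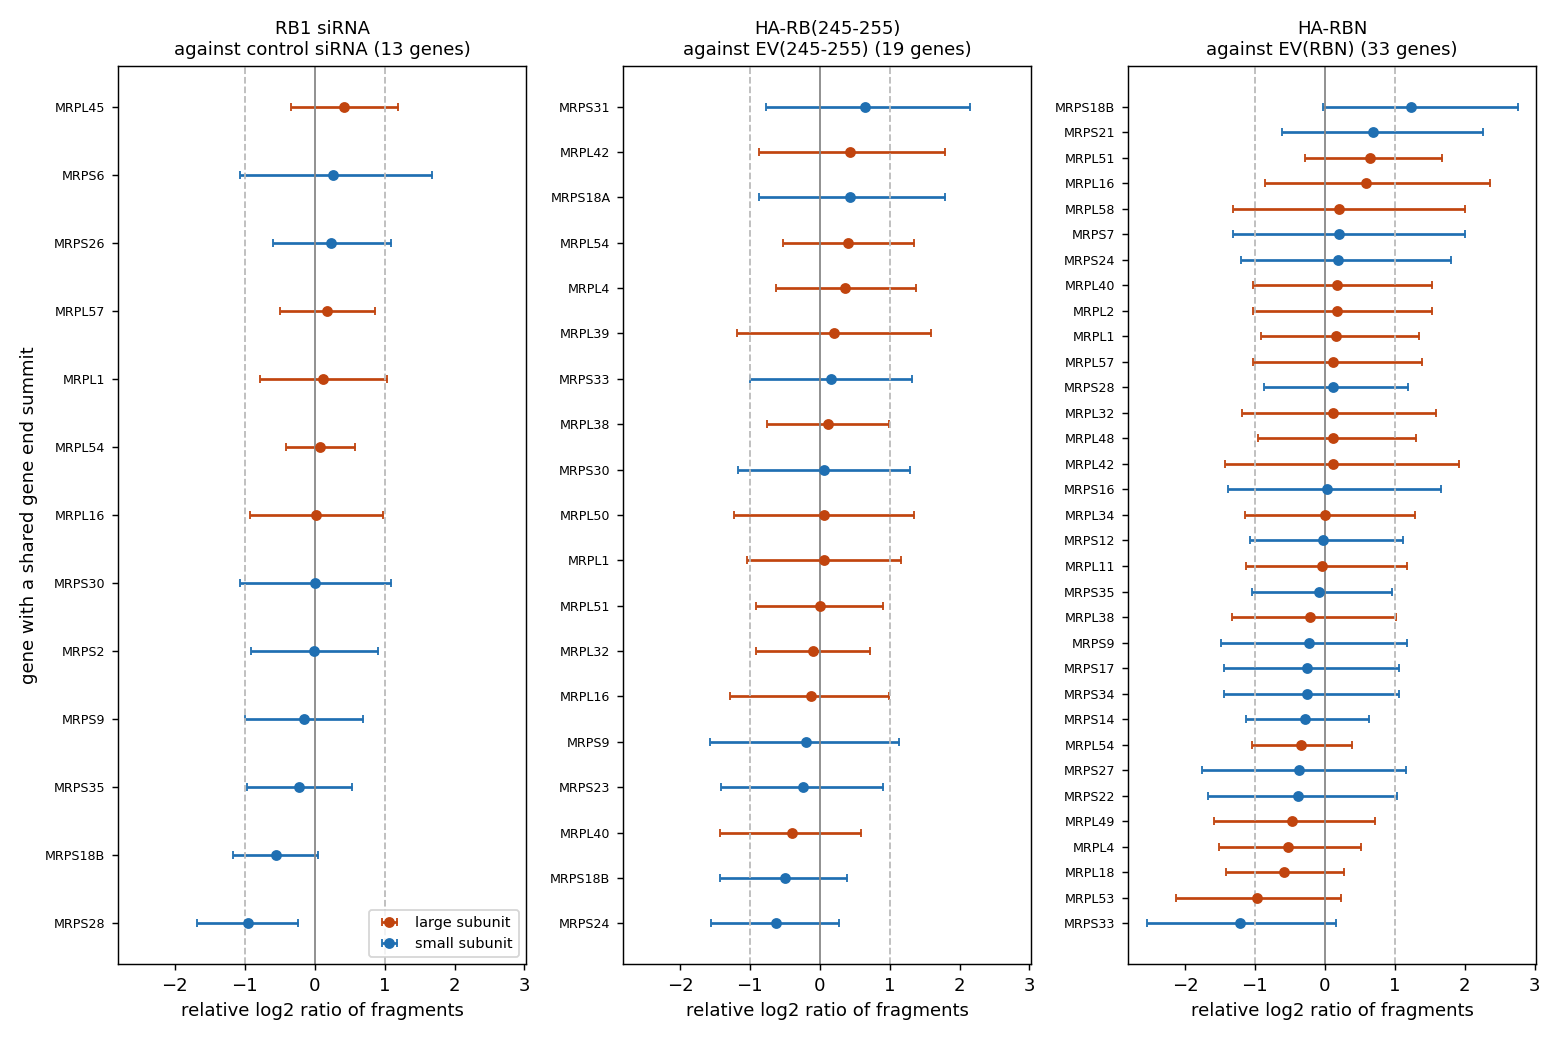
Relative log2 ratio of fragments at shared gene end summits, with exact conditional binomial 95% intervals for counting error, for RB1 siRNA against control siRNA, HA-RB(245-255) against EV(245-255) and HA-RBN against EV(RBN); 0 marks the median over all gene ends compared, and dashed lines stand 1 log2 unit from it. MRPS28 in the siRNA pair is the only interval that excludes 0.

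The promoter windows of these genes held 2 of the motifs searched more often than those of other genes. The ETS core CCGGAAG was present in 29 of 69 windows (42.0%), against 14.2% of all windows and 19.8% of those rich in CpG. The YY1 letters AANATGGCG were present in 18 (26.1%), against 4.81% and 6.95%. Large and small subunit genes had them alike, at 40.5% and 44.4% for ETS and 26.2% and 25.9% for YY1. Of 39 ETS matches 33 began between 100 bases before and 50 after the start, with a median position of −22, and 18 were on the strand of the gene. Of 20 YY1 matches 18 were on the strand of the gene and 16 began after the start, with a median position of 12. MRPS34 and MRPS22 held 3 ETS matches each, and MRPL20, which had a summit in no library, held 2. Any of ETS, YY1 or NRF1 with 1 open base was found in 47 windows (68.1%), against 24.2% of all windows.

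Most other motifs were near the background of all windows or below it, and the E2F letters TTTGGCGC and the ZNF143 motif, which stood above it, rested on 2 windows each. The NRF1 palindrome with 1 open base stood in 11.6% of the 69 windows against 8.58% of all and 12.7% of CpG-rich ones, and its exact form in 1 window, MRPL17. The SP1 letters GGGCGG stood in 60.9% against 58.5% of all and 77.4% of CpG-rich windows. The NFY letters CCAAT stood in 29.0% against 36.4%, the TATA box TATAAA in 2.90% against 9.63%, and the E-box CACGTG in 8.70% against 8.88%. The cyclic AMP element TGACGTCA stood in none, against 2.59%. The letters of E2F, the factors that RB is known to restrain, stood in 1.45% against 2.18% as TTTCCCGC and in 2.90% against 0.890% as TTTGGCGC, which are 1 and 2 windows. The ZNF143 motif stood in 2.90% against 1.59%. All were searched on both strands, and the search with an open base includes the exact NRF1 letters. Only 1 further pair of matches to different motifs overlapped, ETS with SP1 in MRPL53. Some SP1 matches overlapped each other, as in MRPL28.

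**Figure D5:**
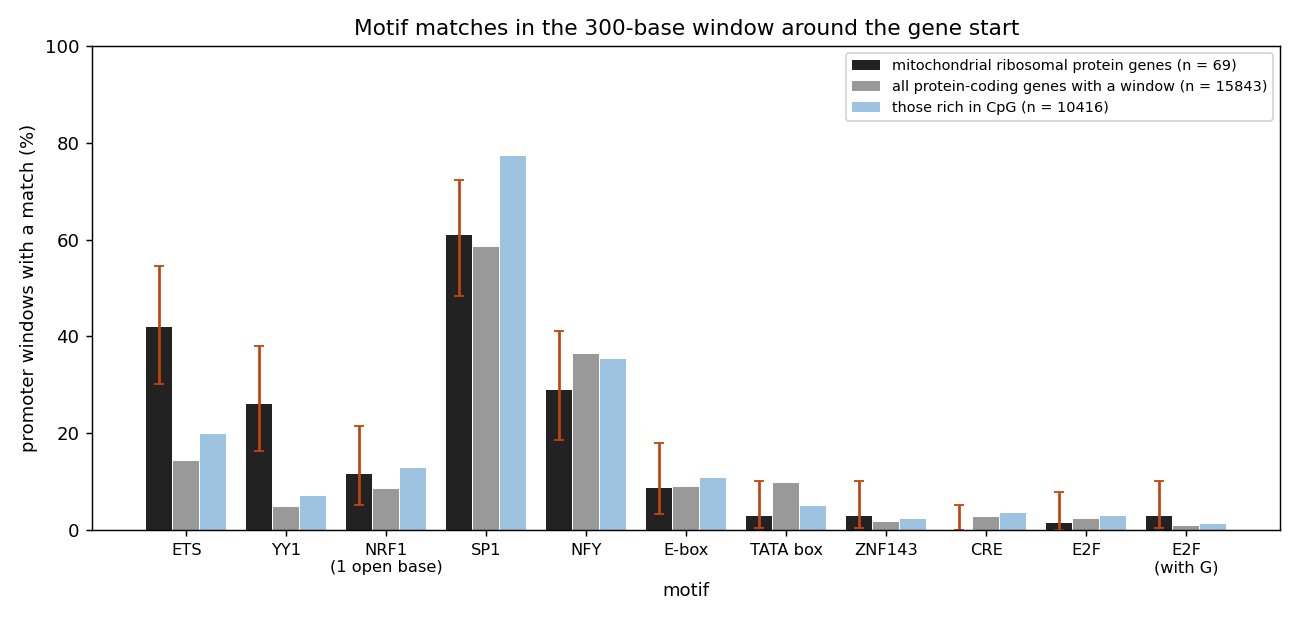
Percent of 300-base promoter windows with a match to each motif, for 69 mitochondrial ribosomal protein genes (with exact 95% intervals), all 15843 protein-coding genes with a window and the 10416 rich in CpG. ETS and YY1 stand above both backgrounds, and each of the other motifs has a background inside or above its interval.

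Among these genes, summits were less frequent with the ETS core than without it in every library but EV(245-255). The gap was widest in the siRNA pair and slight with EV(RBN). With RB1 siRNA 9 of 29 genes with a match had a summit, against 23 of 40 without, and with control siRNA 5 of 29 against 16 of 40. The counts were 15 of 29 against 25 of 40 with HA-RB(245-255), 16 of 29 against 21 of 40 with EV(245-255), 26 of 29 against 39 of 40 with HA-RBN and 26 of 29 against 36 of 40 with EV(RBN). For the YY1 letters the order was the other way in most libraries, with 13 of 18 genes with a match against 19 of 51 without for RB1 siRNA, 6 of 18 against 15 of 51 for control siRNA, 13 of 18 against 27 of 51 for HA-RB(245-255), 14 of 18 against 23 of 51 for EV(245-255), 17 of 18 against 48 of 51 for HA-RBN, and 16 of 18 against 46 of 51 for EV(RBN). These are counts without a test and were not made over all genes, so they are not shown to be particular to these genes. What lies behind them was not tested.

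Other genes of mitochondrial translation were counted in the same way, without a test. Of 5 mitoribosomal proteins outside the MRPL and MRPS names, AURKAIP1 had a summit in all 6 libraries, with 39 fragments with RB1 siRNA and 25 with control siRNA, 25 with HA-RB(245-255) and 23 with EV(245-255), and 25 with HA-RBN and 4 with EV(RBN). PTCD3 had one in 5 libraries, DAP3 in 3, and CHCHD1 and GADD45GIP1 in 1 each. Of 26 assembly factors, 11 had a summit with RB1 siRNA and 9 with control siRNA, 14 each with HA-RB(245-255) and EV(245-255), and 26 with HA-RBN and 23 with EV(RBN). RBFA, which acts in maturation of the small subunit, had the highest enrichment among those with a summit in 6 libraries, with 179 fragments with RB1 siRNA and 162 with control siRNA, 69 with HA-RB(245-255) and 77 with EV(245-255), and 78 with HA-RBN and 25 with EV(RBN). It thus stood above MRPL54 except with EV(RBN), where MRPL54 had 26. AFG3L2, a subunit of the inner membrane protease that processes MRPL32, came second among them with a geometric mean enrichment of 101. The genes named in the lists that follow are likewise the highest among those with a summit in 6 libraries, not among all genes of a list.

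Of 17 mitochondrial translation factors, 9 had a summit with RB1 siRNA and 6 with control siRNA, 10 with HA-RB(245-255) and 9 with EV(245-255), and 17 with HA-RBN and 15 with EV(RBN), and MTRFR and GFM1 stood at enrichments of 44.2 and 21.8. Of 20 mitochondrial tRNA synthetases, 13 had one with RB1 siRNA and 6 with control siRNA, 11 with HA-RB(245-255) and 13 with EV(245-255), and 19 with HA-RBN and 18 with EV(RBN), and WARS2 and GARS1 stood at enrichments of 141 and 82.1. Of 13 genes for transcription and replication of mitochondrial DNA, 8 had one with RB1 siRNA and 6 with control siRNA, 7 with HA-RB(245-255) and 6 with EV(245-255), and 12 in each RBN library, and MGME1 and TEFM stood at 109 and 32.8. Among 9 regulators of mitochondrial biogenesis, the nuclear receptor ESRRA had an enrichment of 213, and GABPA, an ETS factor, followed at 79.6. GABPA had 58 fragments with RB1 siRNA and 45 with control siRNA, 24 with HA-RB(245-255) and 21 with EV(245-255), and 52 with HA-RBN and 9 with EV(RBN).

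Cytosolic ribosomal protein genes, the counterpart set, had summits at 36 of 86 genes (41.9%) with RB1 siRNA and 36 (41.9%) with control siRNA, 51 (59.3%) with HA-RB(245-255) and 49 (57.0%) with EV(245-255), and 83 (96.5%) with HA-RBN and 78 (90.7%) with EV(RBN). In control siRNA this share stood above that of the mitochondrial ribosomal protein genes, 28.6%, and in each of the other libraries it lay inside the 95% interval of the mitochondrial ribosomal protein genes' share. Genes for oxidative phosphorylation subunits, which work beside the products of these ribosomes, gave 28 of 78 with RB1 siRNA and 26 with control siRNA, 44 with HA-RB(245-255) and 42 with EV(245-255), and 73 with HA-RBN and 69 with EV(RBN). Their shares were 35.9% and 33.3% in the siRNA pair, 56.4% and 53.8% in the 245-255 pair, and 93.6% and 88.5% in the RBN pair.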

How the data were processed

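ChIP-seq peak lists of 6 immunoprecipitated libraries were analysed, and 4 IgG libraries were not used here. The submitters' processing notes name MACS2 2.1.0, Bowtie 1.1.2, Trimmomatic 0.33 and bcl2fastq 2.17, and the build hg38, without their roles. Read totals, settings and control libraries are not stated in the sources used here. The deposited lists were made per library and give, for each peak, the authors' fold enrichment, a ratio of summit signal over local background, with its −log10 p-value, −log10 q-value and summit offset. MACS2 computes the fold as pileup plus 1 divided by background plus 1, and the p-value from the upper Poisson tail, so together they gave the fragments at each summit. This needed the pileup of 1 fragment, which was inferred from each of the 4 wide lists. It ran from 0.0166 to 0.0512 in those lists and was set to 1 in the RBN pair. The lowest solution was taken. The calculation was tried on peaks simulated with the same formulas and scale, which cannot check the formulas or the scale. More than 1 solution fitted 19 of 35 summits at these genes with RB1 siRNA, 10 of 22 with control siRNA, 6 of 43 with HA-RB(245-255), 18 of 42 with EV(245-255), 2 of 71 with HA-RBN and 0 of 68 with EV(RBN). In the 4 wide lists the next solution would need a local background of at least 202 fragments, against at most 2.50 in the one taken. With HA-RBN the 2 cases are the summit shared by MRPL46 and MRPS11. There 6 fragments at a background of 0.43 were taken, and 7 at 0.634, the library background, also fitted. Peaks outside chromosomes 1-22, X and Y were left out.

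Genes, starts and strands came from RefSeq tables of GRCh38.p14, with a start and promoter window for 15843 genes. No window was used for MRPL2, MRPL10, MRPL13, MRPL15, MRPL21, MRPL23, MRPL35 and MRPS28. The strongest summit within 1 kb stood for a gene. Shares carry exact Clopper-Pearson 95% intervals, differences of shares Newcombe intervals and ratios exact conditional binomial intervals. With 1 library per group no test was made. The genes, gene lists, motifs and rules were chosen with earlier results of these data known. Named genes were the 8 with the highest geometric mean enrichment among those with a summit in 6 libraries, with at least 3 of each subunit, the 4 highest and 4 lowest ratios per pair, genes without any summit, genes next to the 1 kb limit, the 2 strongest genes of each list among those with most libraries, and neighbours sharing a summit. MRPL3, MRPS2, MRPS30 and genes named for their motifs, position spread or missing intervals were named after their values were seen. Alternatives were other windows, thresholds, list lengths, centring and minimum fragments. Python 3.11.15, numpy 2.4.6, pandas 2.3.3, scipy 1.17.1 and matplotlib 3.10.9 were used.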

Additional observations from a re-analysis of the deposited data

How the results depend on the processing

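The share of mitochondrial ribosomal protein genes with a gene end summit moved with the threshold and with what was counted. With a −log10 q of at least 2 it was 0% in the 4 wide lists, against 1.17% to 2.51% of all genes. At that level it was 76.6% with HA-RBN and 37.7% with EV(RBN), against 45.1% and 20.9%. With at least 20 fragments it was 28.6% with RB1 siRNA, 18.2% with control siRNA, 13.0% in both libraries of the 245-255 pair, 32.5% with HA-RBN and 2.60% with EV(RBN), against 21.5%, 17.0%, 12.8% and 13.2%, 18.4%, and 2.83% of all genes. With lists cut to the same length (20860 peaks) it was 29.9% with RB1 siRNA, 39.0% with HA-RB(245-255), 37.7% with EV(245-255), 75.3% with HA-RBN and 58.4% with EV(RBN), and over all genes 29.0%, 30.1%, 29.0%, 42.7% and 29.4% in those libraries. Counting any interval gave 100% in the 4 wide lists, against 99.0% to 99.5% of all genes. A 2 kb window gave 98.7% with HA-RBN, against 85.0% of all genes. A 500 bp window gave 75.3% with EV(RBN), against 45.4%. The other 19 planned shares, and 6 over CpG-rich genes alone, stayed within their intervals. The large minus small difference was 0 points with control siRNA under a −log10 q of at least 2 and under any interval, −14.3 points with HA-RBN at a −log10 q of at least 2, and 4.08 points with EV(RBN) at 20 fragments, and 38 other planned values stayed within their intervals. Counting MRPS18A and MRPS30 as large subunit genes, an alternative chosen after the data were seen, moved none of 6 differences beyond its interval. Centred on the library backgrounds, the median log2 ratio was −0.42 for HA-RB(245-255) against EV(245-255) and 0.69 for HA-RBN against EV(RBN), and a 2 kb window gave 0.12 for HA-RBN against EV(RBN), while 12 other medians stayed within their intervals. Median fragments did not depend on taking the strongest or the nearest summit in any library. The cause of these shifts was not tested beyond what each setting removes. Leaving out a replicate cannot be done with 1 library per group. No paired analysis was possible because each group has 1 library and the labels give no replicate numbers. Background depth ran from 0.187 to 0.634 fragments per base, and its part in the number of listed summits was not tested.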

Other observations

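Pseudogenes named after mitochondrial ribosomal protein genes are a set of 106 loci that the counts above leave out. Of them, 1 (0.943%) had a summit at either end with RB1 siRNA and 3 (2.83%) with control siRNA, 8 (7.55%) with HA-RB(245-255) and 4 (3.77%) with EV(245-255), and 21 (19.8%) with HA-RBN and 13 (12.3%) with EV(RBN). Over all 17051 annotated pseudogenes the shares were 4.85% with RB1 siRNA and 3.13% with control siRNA, 11.04% with HA-RB(245-255) and 9.28% with EV(245-255), and 30.1% with HA-RBN and 17.4% with EV(RBN). The exact 95% interval of the named pseudogenes' share held the share of all pseudogenes in 5 libraries, and with HA-RBN it ran from 12.7% to 28.7%, below that share. Their protein-coding namesakes had summits in 28.6% to 92.2% of cases. How reads shared between a gene and a near-identical copy were placed is not stated in the sources used here, and its part in these shares was not tested.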
